A study of Mus musculus with 66 samples.

Results

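The nuclear genes of the 5 respiratory chain complexes were followed through oocytes of the mouse ovary and oocytes grown from embryonic stem cells. Members were chosen by gene symbol alone: the Nduf subunits of complex I without the assembly factors, Sdha to Sdhd of complex II, the Uqcr genes of complex III, Cox4 to Cox8 of complex IV and the Atp5 genes of complex V. The rule found 84 of the 24062 genes of the expression table, 37 in complex I, 4 in complex II, 8 in complex III, 18 in complex IV and 17 in complex V. The complex of each member was also read from its symbol and was not checked against the known make-up of the complexes. No measured value entered the choice. The mitochondrially encoded subunits were not analysed here.

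The chain passes electrons from NADH and succinate to oxygen and stores the energy as a proton gradient across the inner mitochondrial membrane. Complex I (NADH dehydrogenase) and complex II (succinate dehydrogenase, also an enzyme of the citrate cycle) feed ubiquinone, complex III hands the electrons to cytochrome c, complex IV (cytochrome c oxidase) reduces oxygen, and complex V (ATP synthase) uses the gradient to make ATP. Complexes I, III, IV and V are built from products of both genomes, complex II from nuclear genes alone. Oocytes of primordial follicles are small and dormant; on activation they enter a long growth phase in which mitochondria multiply. FOXO3 is the transcription factor that holds primordial follicles back from activation.

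The study covered 66 libraries in 24 groups. Ovarian oocytes (C57BL/6 x B6D2F1, isolated from ovaries that carry the stella-ECFP reporter) came from 3 embryonic stages (E14.5, E16.5 and E18.5) and from the days after birth P1, P3, P4 and P6, the last pair split into small and large oocytes, with 3 libraries in each of these 9 groups. Cultured oocytes came from C57BL/6 X 129/SvJ embryonic stem cells turned into primordial germ cell-like cells with the Blimp1-mVenus reporter and aggregated with E12.5 gonadal somatic cells into a reconstituted ovary; 9 groups of 3 libraries spanned culture days D5 to D20. At D21 there were 6 groups of 2: wild type (WT) and Foxo3dNES transgenic (Tg) oocytes in normoxia (air), in hypoxia (5% O2) and with the oxygen not given in the label. The promoter of the transgene and the number of stem cell clones are not given in the sources used here, and the somatic cells of the aggregates came from embryos and not from the stem cells. The design text calls the replicates biological.

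Values are RPM, the reads of a gene per 1000000 reads of its library, which are not divided by gene length. Libraries held 13.9 to 23.2 M (megareads) in vivo, 14.7 to 22.8 M in the culture course and 4.84 to 21.3 M at D21, where the 4 libraries with no stated oxygen were the shallowest (4.84 to 8.72 M). A count of 3 reads corresponded to between 0.129 and 0.619 RPM. All 11 germ cell and oocyte markers were detected in every group. Foxo3 stood at 322 to 324 RPM in Foxo3dNES normoxia libraries against 44.8 to 88.5 in WT normoxia, and at 364 to 367 against 123 to 128 in hypoxia. Library 2 of D5, library 1 of WT D21 without stated oxygen and library 2 of WT normoxia stood apart in the summed level of the members. Results that use them are given with and without them, as counts of calls for D5 and as medians for D21.

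Cox4i1 and Cox4i2 code for alternative forms of the same complex IV subunit, Cox4i1 being the common form and Cox4i2 the form known from lung and from cells in low oxygen. Because their reads are told apart only by sequence, a stretch of 120 coding bases is shown for both (GENCODE vM21 transcripts, 5′ to 3′, coding bases 230 to 349 of Cox4i1 and 239 to 358 of Cox4i2), with the 31 bases that differ in capitals.
Cox4i1: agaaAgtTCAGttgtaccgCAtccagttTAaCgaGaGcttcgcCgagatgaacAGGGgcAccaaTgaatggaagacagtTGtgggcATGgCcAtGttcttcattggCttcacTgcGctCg
Cox4i2: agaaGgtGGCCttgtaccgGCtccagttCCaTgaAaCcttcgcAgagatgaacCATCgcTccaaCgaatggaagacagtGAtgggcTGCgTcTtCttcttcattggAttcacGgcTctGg
Over the 490 aligned bases of the whole coding sequences the pair was 69.2% identical. The other alternative pairs lay between 58.5% (Cox8a and Cox8c) and 68.6% (Ndufa4 and Ndufa4l2).

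Nuclear respiratory chain genes are textbook targets of the factors NRF1, GABP (an ETS factor) and YY1. Promoters of 300 bases (250 before to 50 after the start, RefSeq, GRCm38.p6) were present for 66 of the 84 members. Those without an entry included Ndufa2, Ndufa4l2, Ndufb9, Ndufs1, Sdhc, Uqcrb, Uqcrc2, Uqcrq, Cox4i1, Cox4i2, Cox6a2, Cox6c, Cox8c, Atp5a1, Atp5f1, Atp5s and Atp5sl. Promoters were searched on both strands for GCGCATGCG (NRF1), CCGGAAG (ETS) and AAGATGGCG (YY1); none contains another, though the ETS letters end in the AAG that begins those of YY1. NRF1 letters stood in 8 of the 66 (12.1%, against 2.64% of the 16781 promoters of genes in the expression table), ETS letters in 16 (24.2% against 12.8%) and YY1 letters in 7 (10.6% against 2.18%). At least 1 of the 3 motifs was found in 26 members, 39.4% against 16.53%. The 4 promoters below belong to members that set the range of the results. They include Uqcr10, with the largest small-oocyte excess of complex III and no match, and Sdhd, which at P6 went the other way from Sdhb and Sdhc (ETS). The others are Ndufa11, lower in small oocytes at P4 (NRF1), and Ndufs7, whose difference between small and large oocytes widened from P4 to P6 (YY1). Capitals mark the motif.
Uqcr10, chr11:4704295-4704594, minus strand: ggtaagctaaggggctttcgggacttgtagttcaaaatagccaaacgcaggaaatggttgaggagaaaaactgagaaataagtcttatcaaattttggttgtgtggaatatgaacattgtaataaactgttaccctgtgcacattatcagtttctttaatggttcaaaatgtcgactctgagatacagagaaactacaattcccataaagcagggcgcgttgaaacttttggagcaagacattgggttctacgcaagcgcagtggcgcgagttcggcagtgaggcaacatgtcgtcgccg
Sdhd, chr9:50603800-50604099, minus strand: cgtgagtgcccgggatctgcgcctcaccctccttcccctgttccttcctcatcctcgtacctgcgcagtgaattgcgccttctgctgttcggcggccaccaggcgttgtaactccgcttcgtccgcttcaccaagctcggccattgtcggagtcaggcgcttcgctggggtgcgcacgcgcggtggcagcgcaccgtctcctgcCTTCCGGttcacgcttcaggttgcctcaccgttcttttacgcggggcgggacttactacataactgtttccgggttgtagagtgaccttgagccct
Ndufa11, chr17:56717512-56717811, plus strand: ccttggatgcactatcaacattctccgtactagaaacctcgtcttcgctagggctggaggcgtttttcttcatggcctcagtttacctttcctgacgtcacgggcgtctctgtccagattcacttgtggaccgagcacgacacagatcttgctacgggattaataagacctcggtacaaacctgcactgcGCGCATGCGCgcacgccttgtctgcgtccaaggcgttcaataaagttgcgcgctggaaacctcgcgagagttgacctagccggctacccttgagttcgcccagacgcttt
Ndufs7, chr10:80249199-80249498, plus strand: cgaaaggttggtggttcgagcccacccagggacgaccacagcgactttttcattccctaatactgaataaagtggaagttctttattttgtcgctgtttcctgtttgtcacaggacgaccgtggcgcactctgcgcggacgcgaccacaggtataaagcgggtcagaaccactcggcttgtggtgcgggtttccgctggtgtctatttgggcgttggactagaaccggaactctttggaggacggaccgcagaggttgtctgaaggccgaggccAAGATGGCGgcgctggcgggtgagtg
A match describes the letters of this window and not a bound site.

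Nearly all members were expressed throughout. Of the 84, 77 had a group mean of at least 1 RPM in all 24 groups and 75 of at least 10 RPM. Cox8b, the form of heart and skeletal muscle, stayed below 1 RPM in every group. The remaining 6 (Cox4i2, Cox6a2, Cox7a1, Cox7b2, Cox8c and Ndufa4l2) were above 1 RPM in some groups only, and all 6 are alternative forms of a subunit. Per kilobase of transcript, Cox4i1 was the highest member at P3 (995 RPM per kb), followed by Cox6c (771), Atp5e (688) and Atp5o (670).

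Added over all members, the level lay between 11653 and 14956 RPM from E14.5 to P3 and was lower in large oocytes. The sum was 13662 ± 2039 RPM at E14.5 (SD, n = 3), 11653 at E16.5, 13448 at E18.5, 14956 at P1 and 14438 ± 812 at P3. Small oocytes had 14205 ± 1278 RPM at P4 and 13409 ± 231 at P6, whereas large oocytes had 9218 ± 952 at P4 and 7145 ± 172 at P6. The large-oocyte libraries lay below every other in vivo library of P3 to P6. As a share of the library this was 1.34% in small and 0.71% in large oocytes at P6. In bulk RPM, fewer transcripts of these genes and more RNA of other genes cannot be told apart.

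In culture the sum was 12853 RPM at D11, 16228 ± 580 at D13 and 7282 ± 1256 at D20. From D13 to D20 complex I went from 5124 to 2272 RPM, complex III from 1465 to 799, complex IV from 3538 to 1354 and complex V from 5459 to 2410. Complex II, the smallest, went from 642 to 448.

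**Figure D1:**
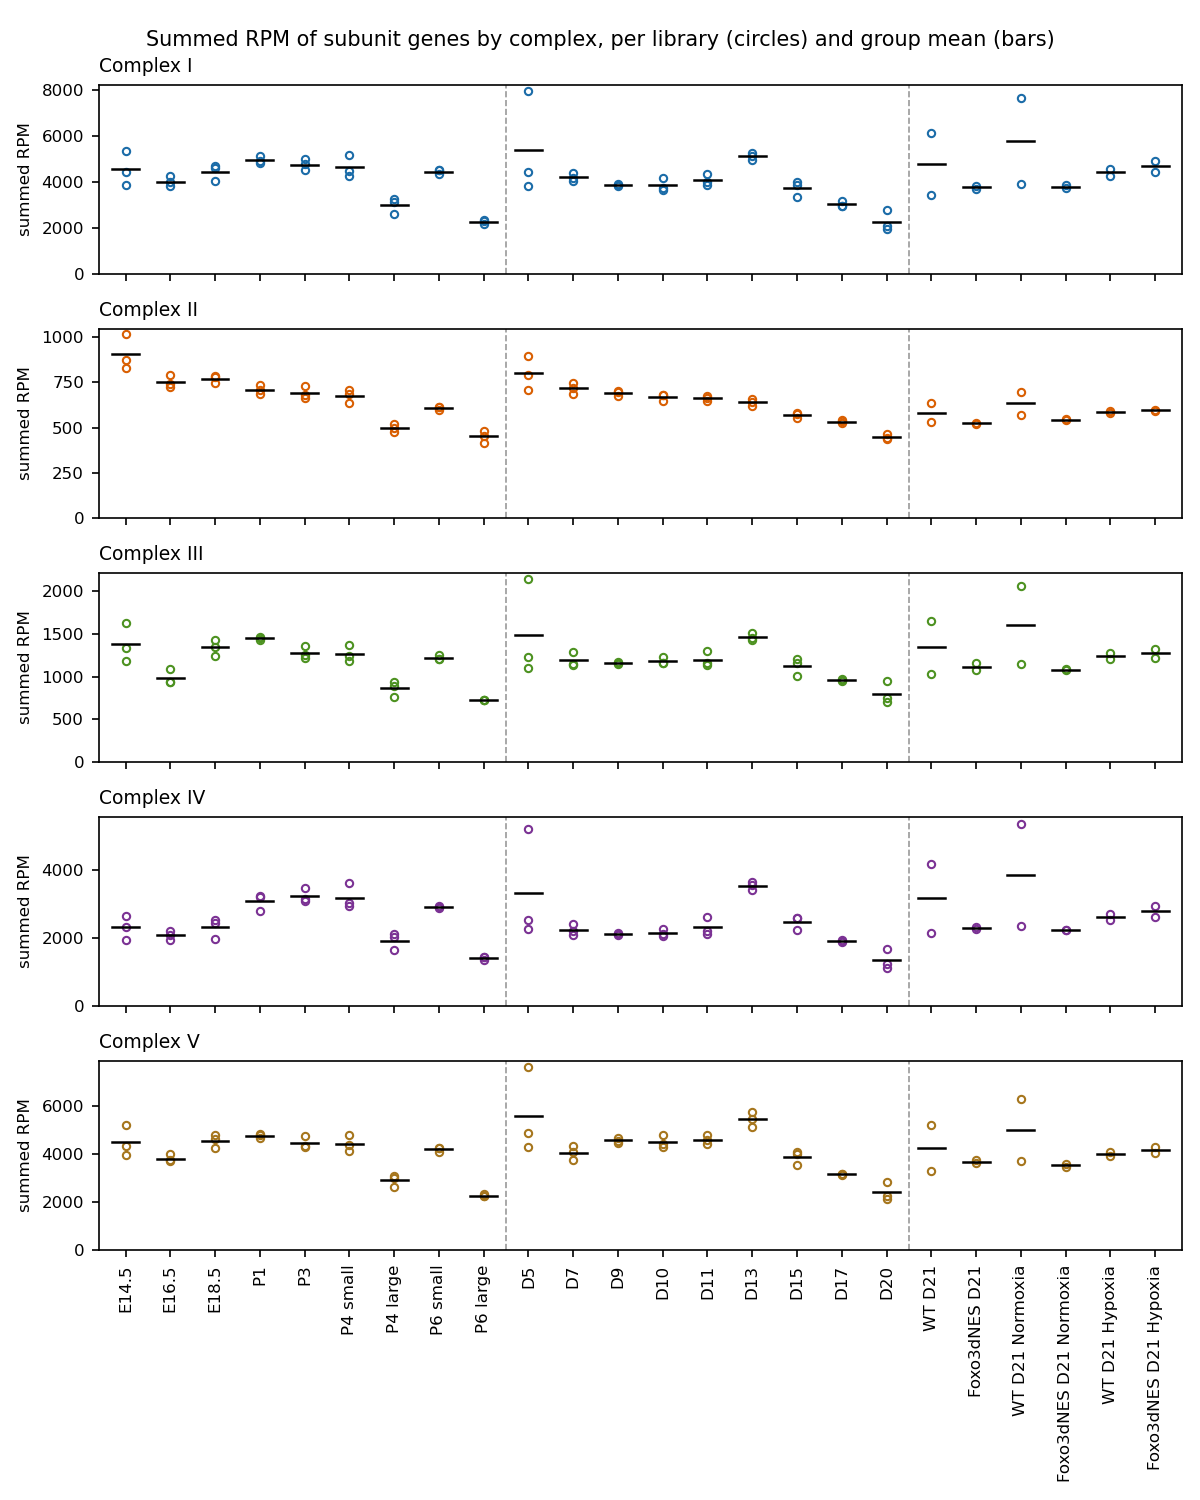
Summed RPM of the subunit genes of each complex (vertical axis, from 0) in the 24 groups (horizontal axis); circles are libraries, bars are group means, and dashed lines separate ovarian oocytes, the culture course and D21. Large oocytes at P6 are low in all 5 panels, with complex I at 2274 RPM against 4452 in small oocytes, and D5 and both WT D21 groups with air or no stated oxygen hold 1 library far above its partners.

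Between E14.5, when germ cells of the fetal ovary enter meiosis, and E18.5, members moved in both directions. Of 82 members tested, 30 rose (40% of all 15401 genes tested rose) and 18 fell (30% of all genes), by limma-trend on log2(RPM + 1) with a Benjamini-Hochberg adjusted p below 0.05 over all genes. The members' median log2 change was 0.06, against 0.14 over all genes. After rescaling the libraries by median-of-ratios, which brought the all-gene median to 0.01, the split turned to 15 higher and 32 lower. Of all 15401 genes, 5181 were then higher and 5467 lower. All 15 members higher were among the 30 of the unscaled fit, and the 32 lower held all 18 of its falls.

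Members of the same complex parted. Ndufs1, the largest core subunit of complex I and a carrier of iron-sulfur clusters, stood at 423, 392 and 374 RPM at E14.5 and at 179, 187 and 213 at E18.5. The groups did not overlap, and the log2 change was -1.04 ± 0.11 (SE; limma adjusted p = 7.5e-09). Ndufb10, an accessory subunit of its membrane arm, went the other way, from 50.6 to 99.3 RPM (log2 change 0.99). In complex V the alpha and beta subunits, which alternate in the catalytic F1 head, also parted, a pair chosen after its values were seen. Atp5a1 (alpha) rose from 598, 475 and 484 RPM to 937, 968 and 908. Atp5b (beta) fell from 1371, 1088 and 1191 RPM to 820, 811 and 851. For neither gene did the E14.5 and E18.5 libraries overlap, with log2 changes of 0.86 ± 0.08 (limma adjusted p = 2.6e-10) and -0.55 ± 0.09 (limma adjusted p = 3.9e-06).

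Complex IV had the widest spread. Cox7b, a small subunit of the oxidase, rose from 18.1, 28.9 and 22.3 RPM to 98.3, 108 and 71.8 (log2 change 1.96 ± 0.15). Cox8a, another of its small membrane subunits, rose by 1.56 on the log2 scale. Cox7a1, the heart and muscle form of subunit 7a, fell from 20.7, 17.4 and 14.4 RPM to 2.03, 0.977 and 1.07, with no overlap (-2.99 ± 0.27). In complex III Uqcrq, a small subunit next to cytochrome b, rose from 44.7 to 107 RPM (1.24), while Uqcrh, the hinge protein, fell from 192 to 153 (-0.33, with overlapping groups). In complex II the membrane anchor Sdhc fell from 230 to 161 RPM (-0.52). In complex V the largest rise was that of Atp5k, a membrane subunit, from 38.2 to 80.0 RPM (1.06), and the largest fall that of Atp5g2, a c ring gene, from 364 to 233 (-0.63). By complex the calls were 14 higher and 8 lower of 37 in complex I, 0 and 2 of 4 in complex II, 2 and 2 of 8 in complex III, 6 and 3 of 16 in complex IV and 8 and 3 of 17 in complex V. The number of calls moved with single libraries. The count that rose was 19 without library 3 of E14.5 (6114 of all genes) or without library 1 of E18.5 (5980). The count that fell was 11 without library 1 of E14.5 (4719 of all genes).

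From E18.5 to P3, when oocytes are enclosed in primordial follicles, 29 members rose (26% of all genes) and 22 fell (32.3%), with a median log2 change of 0.12 against -0.07 over all genes. Without library 3 of E18.5 the count that rose was 19 (3639 of all genes). Cox4i2 had the largest log2 change of the 82 members. It stood at 0.396, 0.192 and 0.864 RPM at E14.5, at 8.02, 7.40 and 4.24 at E18.5, at 35.1, 50.6 and 47.1 at P1 and at 80.6, 92.8 and 126 at P3. No pair of these 4 stages overlapped, and at E16.5 its reads were near the limit of detection (0 to 0.149 RPM). The log2 change from E18.5 to P3 was 3.75 ± 0.23 (limma adjusted p = 1.8e-12).

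Cox6b2, the testis-type form of subunit 6b, rose over the same interval from 33.0 to 96.3 RPM (1.52 ± 0.18), and Atp5o, the stalk subunit that binds the F1 head, from 213 to 355 (0.74 ± 0.10). Atp5f1, subunit b of the peripheral stalk, fell from 642, 587 and 574 RPM to 341, 300 and 298, without overlap (-0.94 ± 0.11). In complex I the accessory subunits Ndufb11 and Ndufc1 marked the ends, from 103 to 191 RPM (0.88) and from 108 to 56.8 (-0.93), and Ndufs1 fell further, to 131, 124 and 116 (-0.64 ± 0.11). In complex III Uqcrq rose from 107 to 155 RPM (0.54) and Uqcrb fell from 74.4 to 53.2 (-0.48). Cox7b2, a testis-type form, fell from 5.18 to 0.383 RPM (-2.17). Complex II had no member that rose and 2 that fell, with Sdhd, the other membrane anchor, at 108 and then 82.1 RPM (-0.39). The granulosa markers summed to 45.7 to 54.5 RPM at E14.5, 71.5 to 120 at E18.5 and 19.7 to 46.5 at P3. The stroma and theca markers summed to 8.21 to 11.1, 31.8 to 70.9 and 9.73 to 22.4 RPM, and the germ cell and oocyte markers to 2993 to 3467, 5390 to 5946 and 8346 to 9442. Their part in these changes was not tested.

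The split of P4 and P6 oocytes by size asks what differs between oocytes that stayed small and those that had begun to grow. Members of all 5 complexes were higher in small oocytes. At P4, 66 of 82 were higher in small oocytes (48.7% of all genes) and 1 was lower (20.5%), with a median log2 difference of 0.67 against 0.34 over all genes. At P6 the counts were 74 higher (51.3%) and 1 lower (22.1%), with a median of 0.97 against 0.41. The share of all genes higher in small oocytes was itself large. Rescaling by median-of-ratios set the all-gene medians to 0.01 and 0.00. The members' split at P4 became 29 higher and 11 lower, where 4779 of all 15401 genes were higher and 5114 lower. At P6 it became 45 higher and 8 lower, against 5275 and 5577 of all genes. The members' median stayed positive, at 0.20 and 0.40.

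Complex I was higher in small oocytes in both its parts. At P6 all 7 core subunits and 27 of 30 accessory subunits were higher in small oocytes, with medians of 1.07 and 1.04. Ndufa13, an accessory subunit, had 106 ± 7.49 RPM in small and 32.4 ± 1.98 in large oocytes at P6 and did not overlap between the sizes (1.68 ± 0.12, limma adjusted p = 2.5e-12). Ndufa5, another accessory subunit, had a difference of 1.59. Ndufa11, an accessory subunit of the membrane arm, was the exception. It measured 115, 124 and 98.6 RPM in small against 166, 139 and 157 in large oocytes at P4, where the sets did not overlap (-0.45 ± 0.10, limma adjusted p = 0.00026), and 102 against 117 RPM at P6 (-0.21, adjusted p = 0.063). Ndufa9, which sits where the arms of complex I meet, had 206 and 190 RPM at P6 and did not pass the test (0.12, adjusted p = 0.32).

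Complex II was split within itself. Sdhb, the iron-sulfur subunit, had 162, 155 and 159 RPM in small and 70.7, 78.2 and 72.1 in large oocytes at P6 (1.10 ± 0.11). Sdhc had 134, 146 and 148 against 54.6, 66.5 and 67.4 (1.18 ± 0.11, limma adjusted p = 2e-10). Both were higher in every small library than in any large library. At P4 Sdhc had the largest difference of the complex, with 153 and 66.7 RPM (1.19 ± 0.11). At P6 Sdha, the flavoprotein that oxidises succinate, had 226, 241 and 242 against 207, 220 and 252, and the sets overlapped (0.07 ± 0.08, limma adjusted p = 0.48). Sdhd at P6 had 72.9, 70.6 and 67.8 in small and 84.5, 89.2 and 92.0 in large oocytes, so every large library was the higher (-0.33 ± 0.08, limma adjusted p = 0.0012). At P4 Sdhd had 65.2 and 68.3 RPM per kb of transcript and was not called without rescaling. The 4 subunits of a single enzyme thus covered differences from -0.33 to 1.18 in the same libraries of P6.

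**Figure D2:**
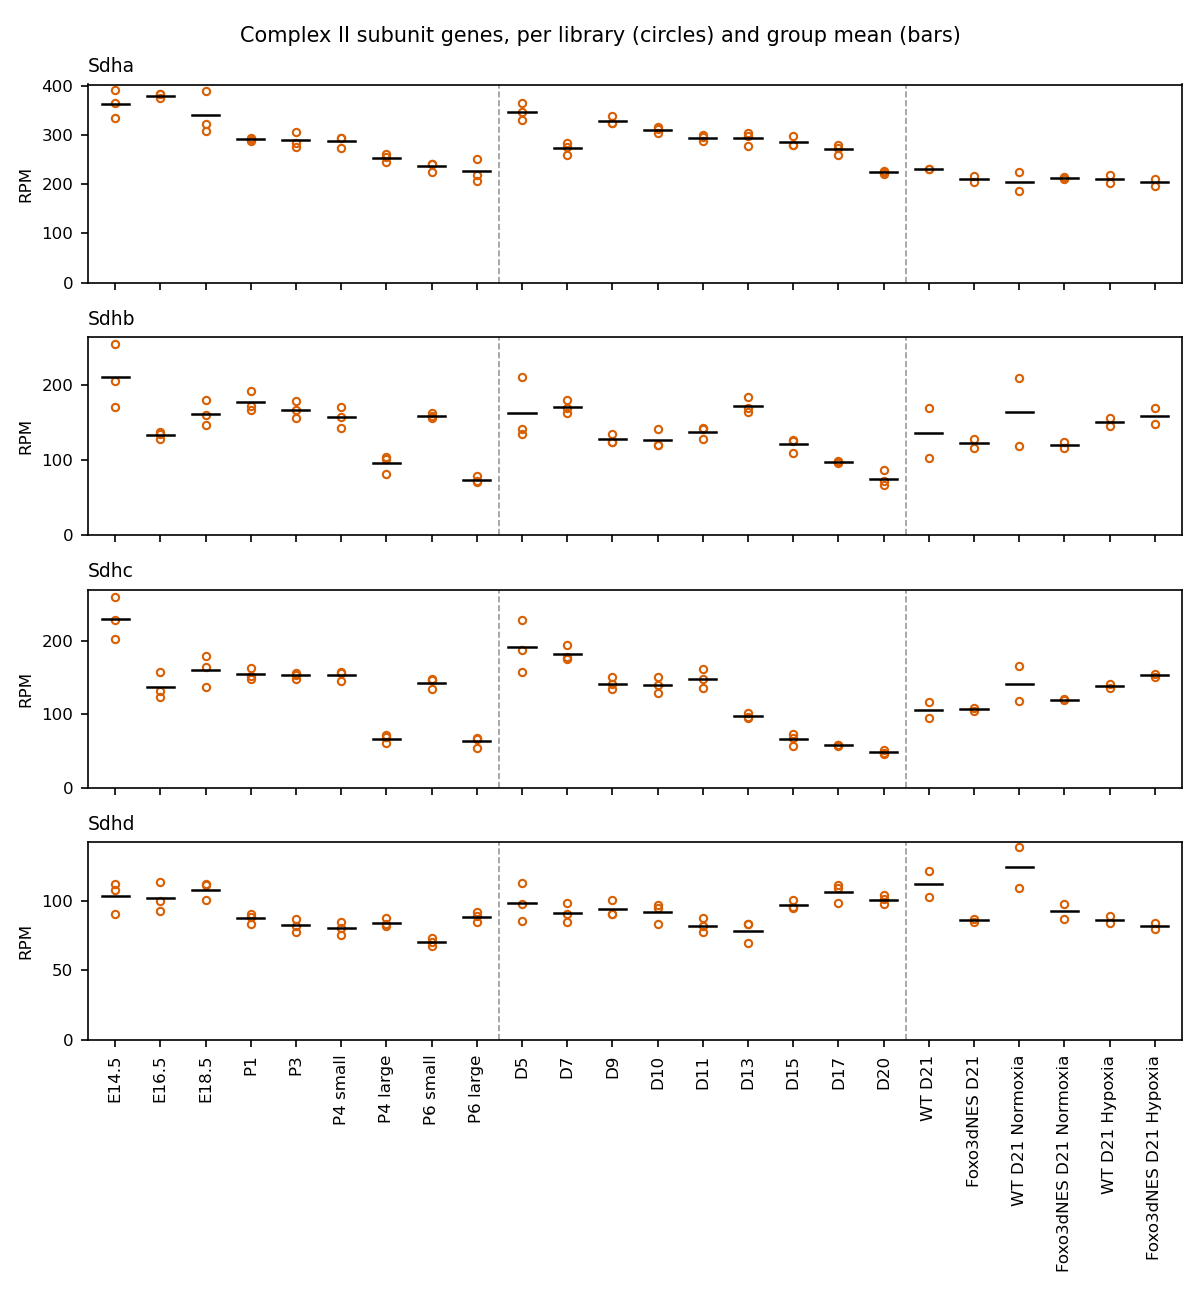
RPM of Sdha, Sdhb, Sdhc and Sdhd (vertical axes, from 0) in the 24 groups; circles are libraries and bars are group means. Sdhb and Sdhc drop in large oocytes at P6 (73.7 and 62.8 RPM) and at D20, whereas Sdhd is higher in large than in small oocytes at P6 (88.6 against 70.4 RPM).

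Complex III held a similar pair. Uqcrc1 and Uqcrc2 code for its core proteins 1 and 2, which the complex holds side by side. Uqcrc1 had 305, 313 and 327 RPM in small and 127, 136 and 124 in large oocytes at P6 (1.28 ± 0.09). Uqcrc2 had 245, 228 and 250 against 228, 239 and 245, and the sets overlapped (0.02 ± 0.09, limma adjusted p = 0.85). The 7 other genes of the complex were all higher in small oocytes, led by Uqcr10, a small subunit, with 97.0, 104 and 92.1 RPM against 26.2, 23.5 and 25.1 (1.93 ± 0.17). It also led at P4, with 75.6 and 29.4 RPM (1.35 ± 0.17). After rescaling, Sdha, Sdhd, Uqcrc2, Ndufa8, Ndufa9, Ndufa11, Cox5a and Ndufb3 were the 8 members called lower in small oocytes at P6, and all but Ndufb3 were also among the 11 at P4.

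In complex IV 14 of 16 members were higher in small oocytes at P6. Cox4i2 had 67.8, 72.9 and 70.1 RPM in small and 22.6, 19.7 and 20.5 in large oocytes (1.70 ± 0.23), and Cox4i1 621 ± 13.1 and 287 ± 10.4 (1.11 ± 0.11). Cox8c, a testis-type form of subunit 8, was low in both and 3.88 against 0.383 RPM (1.81 ± 0.18). At P4, among complex IV members at 5 RPM or more, the largest difference was that of Cox7a2l, which joins complexes III and IV into supercomplexes, with 413 and 181 RPM (1.18 ± 0.12). At P6 all 17 members of complex V were higher in small oocytes, among them the 5 of the F1 head (median 0.88) and the 3 of the c ring, the rotor in the membrane (median 1.43). Of the c ring genes, which code for the same mature protein, Atp5g3 had 235, 231 and 221 RPM against 75.9, 81.0 and 78.5 (1.53 ± 0.09) and Atp5g1 142, 133 and 143 against 99.6, 99.3 and 93.3 (0.51 ± 0.09). Atp5g2, the third of the ring, led complex V at P4, with 303 and 145 RPM (1.07 ± 0.12). Under median-of-ratios rescaling the P6 difference of Atp5g1 was -0.10 on the log2 scale, and those of Cox6a1 and Cox6b2 also turned below 0 (-0.03 and -0.16).

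**Figure D3:**
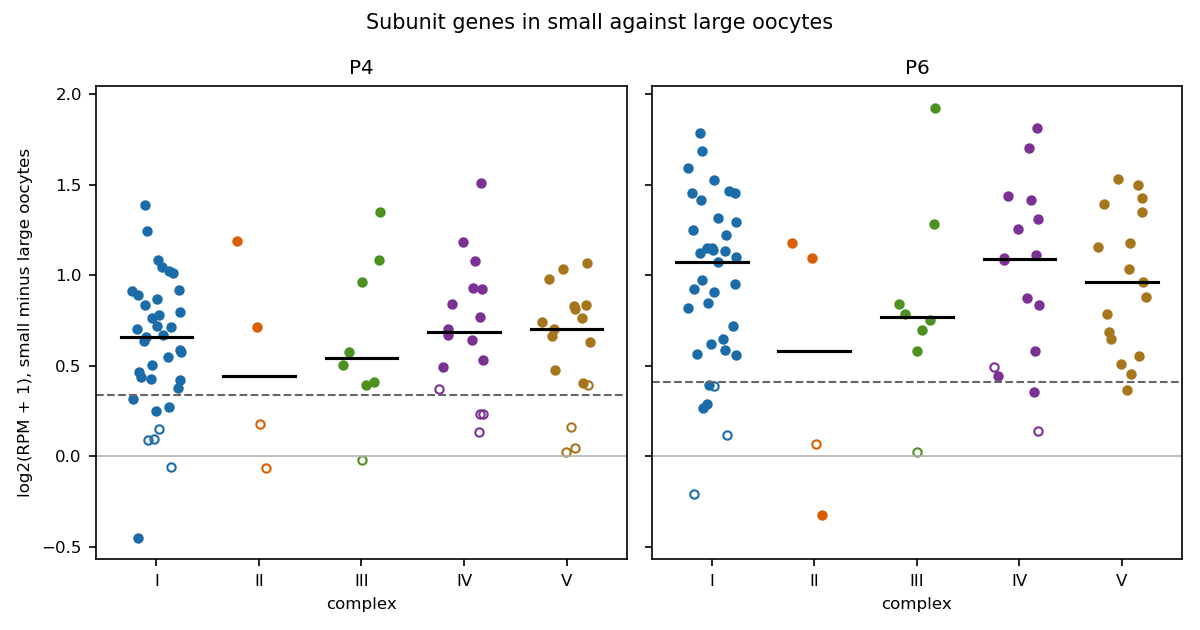
Difference in log2(RPM + 1) between small and large oocytes (vertical axis) for the members of each complex at P4 and P6; filled points passed the test, open points did not, black bars are medians and the dashed line is the median of all genes. Most points lie above the dashed line at P6 (70 of 82), and complex II spans -0.33 to 1.18.

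The difference between small and large oocytes was tested for a change from P4 to P6. It was larger at P6 for 8 members (5.88% of all genes) and smaller for 0 (2.64%; 0 by edgeR and 2 by DESeq2). The higher count was 2 after rescaling, where it was 488 over all genes. It was 1 with edgeR, 3 with DESeq2 and 22 when only these groups were fitted, and the shares of all genes in those fits are not given here. The members' median change was 0.34, against 0.07 over all genes, and 73 of 82 lay above the all-gene median. The 8 were Ndufs3, Ndufs6, Ndufs7 and Ndufa5 of complex I and Atp5d, Atp5g1, Atp5g3 and Atp5o of complex V. The count depended on single libraries. It was 1 without library 1 of the large P4 oocytes, where 385 of all genes were called higher. It was 24 without library 2 of that group (1341 of all genes) and 3 without its library 3 (448). It was 5 without library 1 or 3 of the small P6 oocytes or library 1 of the small P4 oocytes, and 4 without library 3 of the small P4 or of the large P6 oocytes.

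Set against P3, small oocytes of P6 and large oocytes of P6 differed; both comparisons use the same P3 libraries. In small oocytes 0 members were higher (0.935% of all genes; 0 by edgeR and DESeq2, and 1 when only these groups were fitted) and 1, Ndufs1, was lower (1.36%), with 93.7, 95.3 and 86.4 RPM against 131, 124 and 116 (-0.42 ± 0.11, limma adjusted p = 0.042). That call was lost without any one of the 6 libraries, with no filter, with edgeR, after rescaling and with the replicate number as a block. The count of members lower was still 1 without library 3 of P3 and with no filter. In large oocytes 0 were higher (21.8%) and 75 of 82 lower (52.7%), with a median of -1.09 against -0.44 over all genes. Rescaled libraries gave 8 higher and 51 lower, where 5567 of all genes were higher and 5244 lower. The 8 were Atp5g1, Ndufa11, Ndufa4l2, Ndufa8, Ndufa9, Sdha, Sdhd and Uqcrc2. With edgeR 5 were called higher, and with DESeq2 7. The largest falls were those of Cox4i2 (99.9 to 20.9 RPM, -2.18), the accessory subunit Ndufa7 (186 to 50.9, -1.85) and Atp5g3 (268 to 78.5, -1.76). In complexes III and II they were those of Uqcr10 (77.8 to 24.95, -1.60) and Sdhc (153 to 62.8, -1.28).

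Marker genes moved between the same groups. The 11 germ cell and oocyte markers summed to 9595 to 9716 RPM in small and 23808 to 26151 in large oocytes at P4, and to 10551 to 11247 and 25714 to 27815 at P6. The 16 granulosa markers summed to 26.1 to 39.6 RPM in small and 49.98 to 64.9 in large oocytes at P4 and to 16.4 to 28.2 and 80.9 to 87.1 at P6, with 1 of the 16 at 0 in each group; Amhr2, a defining granulosa marker, went the other way, at 2.03 to 3.47 against 0.103 to 0.187 RPM. The 11 stroma and theca markers summed to 8.48 to 31.1 and to 4.49 to 4.74 at P6, and the endothelial markers to 15.4 to 17.6 and 28.8 to 37.0. Of the defining endothelial markers at P6, Pecam1 had 4.51 to 9.34 RPM in small and 16.1 to 23.2 in large oocytes. Cdh5, near the limit of detection, went the other way, at 0.120 to 0.392 RPM in small and 0 in large oocytes. Their part in the differences of the members was not tested.

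Genes that serve the chain without being subunits were counted in the same way. At P6, of 42 assembly factors tested 27 were higher and 4 lower in small oocytes (median 0.50), of 16 regulators of mitochondrial biogenesis 12 and 3 (0.54), of 18 citrate cycle genes 11 and 3 (0.81), and of 9 electron carriers and other entry enzymes 8 and 0 (0.68). Of 77 mitochondrial ribosomal protein genes 57 were higher and 7 lower (0.72). The cytosolic ribosome, a set of short and abundant transcripts, had 82 of 84 higher (1.94). Over all genes 51.3% were higher and 22.1% lower, with a median of 0.41. No difference between these lists and the subunits was tested.

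The culture course began with germ cells at D5 and ended with growing oocytes at D20. From D5 to D11, 5 of 83 members rose (31.2% of all 16065 genes) and 24 fell (15%), with a median of -0.24 against 0.17 over all genes. This result rested on library 2 of D5. The members summed to 23800 RPM in that library against 12164 and 13879 in the other 2, and its Pearson correlation with them over all genes was 0.976 to 0.979. The libraries of D11 correlated no better with each other, at 0.969 to 0.979. With library 2 of D5 left out, 16 members rose and 12 fell, with a median of 0.05 against 0.11. Over all genes, 4524 rose and 2650 fell in that fit. Without library 1 of D5 the members' counts were 3 and 42, against 4979 and 2303 over all genes. Cox4i2, Cox7a1 and Atp5a1 passed the test with and without library 2 of D5. Cox4i2 rose from 0.197, 0.921 and 0.153 RPM to 11.4, 17.9 and 66.3 (4.18 ± 0.47, limma adjusted p = 1.2e-07). Cox7a1 fell from 27, 71.7 and 31.7 RPM to 8.79, 8.87 and 4.02 (-2.37 ± 0.31). Atp5a1 rose from 526, 640 and 595 RPM to 699, 808 and 1070 (0.53 ± 0.14). The largest falls in complexes I, III and V were those of the accessory subunit Ndufa6 (-1.03), of Uqcr11, a small subunit (-0.62), and of Atp5g2 (-0.76); library 2 of D5 held 413 RPM of Ndufa6 against 169 and 185 in the other two. Sdhc led complex II (-0.35). Without that library Ndufa6 (-0.63) and Atp5g2 (-0.36) still passed the test, and Uqcr11 (-0.19) and Sdhc (-0.22) did not. The values of Cox4i2, Cox7a1 and Atp5a1 did not overlap between the days, and without library 2 of D5 their log2 changes were 4.42, -1.94 and 0.59.

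Library 3 of D11 had the highest Cox4i2 of its group and also the highest germ cell marker sum (7258 RPM). At D13 Cox4i2 stood at 146, 127 and 111 RPM, above every library of D11. The 16 granulosa markers summed to 415 to 800 RPM at D11 and 28.1 to 44.3 at D13, and the stroma and theca markers to 196 to 1890 and 7.52 to 29.3. Amhr2 was at 73.0 to 118 RPM at D11 and 0 to 0.173 at D13. The part of these cells in the D11 values of the members was not tested.

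From D11 to D20, 4 members rose (22.5% of all genes) and 61 of 83 fell (55.1%), with a median of -0.84 against -0.66 over all genes. The fall was thus shared by most genes of the table, and after rescaling, with the all-gene median at -0.17, the split was 14 higher and 31 lower. Of all 16065 genes, 5527 were then higher and 6475 lower. All 7 core subunits of complex I and all 3 of the c ring fell. Ndufs1 went from 291, 238 and 207 RPM to 49.1, 57.2 and 48.3 (-2.22 ± 0.14), Uqcrb, a small matrix-side subunit of complex III, from 93.8, 96.4 and 83.5 to 17.5, 28.1 and 19.6 (-2.05 ± 0.24), and Atp5g3 from 283, 326 and 321 to 61.4, 90.0 and 78.2 (-2.02 ± 0.18). Cox7a1 fell from a mean of 7.23 to 0.255 RPM (-2.66 ± 0.31). For each of these genes the D20 libraries lay below every D11 library.

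Sdhd and Uqcrc2, which stood apart from partners in the ovary at P6, were read at D20 as well, chosen after their values had been seen. Sdhd rose from 81.5, 87.4 and 77.5 RPM at D11 to 101, 97.2 and 104 at D20 without overlap (0.29 ± 0.11, limma adjusted p = 0.020), while Sdhc fell from 161, 148 and 135 to 47.0, 51.8 and 45.3 (-1.61 ± 0.12). Sdhb fell by 0.87 and Sdha by 0.39 on the log2 scale, and the change of Sdha turned to 0.25 after rescaling. Uqcrc2 had 255, 251 and 314 RPM at D11 and 264, 317 and 269 at D20, which overlapped (0.05 ± 0.11, limma adjusted p = 0.66). The other 3 that rose were Ndufa4l2 (1.41 to 3.20 RPM, overlapping), Cox6a2 (0.407 to 1.29 RPM), both at low levels, and Atp5sl, from 29.0 to 37.6 RPM (0.36). Atp5sl, named for its likeness to Atp5s, corresponds to Dmac2 in GENCODE vM21 and was placed in complex V by its symbol alone. The count that rose was 2 without library 3 of D11 or library 2 of D20.

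Among the other lists from D11 to D20, 22 of 42 assembly factors fell and 10 rose, 12 of 18 citrate cycle genes fell and 3 rose, 40 of 77 mitochondrial ribosomal genes fell and 11 rose, and 83 of 84 cytosolic ribosomal genes fell and 0 rose. Beside them stand the 55.1% of all genes that fell and the 22.5% that rose. The cytosolic ribosomal genes summed to 81111, 182130 and 89717 RPM in the 3 libraries of D5, to a mean of 42054 at D13 and 13628 at D20.

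At D21 the study crossed low oxygen with the Foxo3dNES transgene. In WT oocytes, 1 member was higher in hypoxia than in normoxia (15.9% of all 14392 genes) and 1 was lower (6.55%), with a median of -0.41 against 0.14 over all genes; 5 members had an unadjusted p below 0.05. Ndufv1, the core subunit of complex I that binds NADH, had 292 and 281 RPM in hypoxia against 198 and 192 in normoxia (0.55 ± 0.12, limma adjusted p = 0.015). Sdhd had 84.0 and 88.9 RPM against 109 and 138 (-0.51 ± 0.15, limma adjusted p = 0.041). Neither gene overlapped between the oxygen levels. Foxo3dNES oocytes had Ndufv1 at 284 and 296 RPM in hypoxia against 227 and 209 (0.41, adjusted p = 0.15), and the difference between the responses of the genotypes was -0.14 ± 0.17 (limma adjusted p = 0.75).

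The WT change hung on the normoxia libraries. The members summed to 11708 RPM in library 1 and to 22042 in library 2, while the 4 hypoxia libraries lay between 12537 and 14083. Without library 1 the members' median was -0.96, against 0.23 over all genes, and without library 2 it was 0.13, against 0.08. It was -0.47 without library 1 of the WT hypoxia group and -0.37 without library 2 of that group. Fitted on the compared groups only, both counts of WT calls were 0, and DESeq2 called 1 higher and 15 lower. The call of Ndufv1 was lost after rescaling and with edgeR, and that of Sdhd with the replicate number as a block and with the crossed block. Neither call held in every fit with a library of these groups left out, and such fits leave a group with a single library. Cox6c, a small subunit of complex IV, shows the gap: 311 and 820 RPM in WT normoxia, 620 and 311 in WT with no stated oxygen, and 296 to 414 in the 8 other libraries of D21.

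The excess in these libraries covered members with short and with long coding sequences, with a larger share in the short ones. The 42 members with a coding sequence below the median of 409.5 bases held 48.7% of the members' summed RPM in library 2 of WT normoxia and 46.2% in library 1 of WT with no stated oxygen, against 36.4 to 39.3% in the 10 others. The 42 longer members summed to 11313 and 9598 RPM in these libraries, against 6351 to 8724 in the 10 others. Across the 82 members, Spearman's rho between coding length and the WT hypoxia change was 0.67, and it was 0.14 without library 2 of WT normoxia. For the difference of Foxo3dNES from WT in normoxia it was 0.71, and 0.26 without that library. With no stated oxygen it was 0.54. The relation was shared by the whole table. With transcript length, rho was 0.57 over the members and 0.48 over all 13636 genes with a length for WT hypoxia. The same values were 0.62 and 0.65 for Foxo3dNES against WT in normoxia, and 0.53 and 0.38 with no stated oxygen. For the in vivo and culture course comparisons the members' rho with coding length lay between -0.17 and 0.10. These are descriptions across genes that share their libraries.

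**Figure D4:**
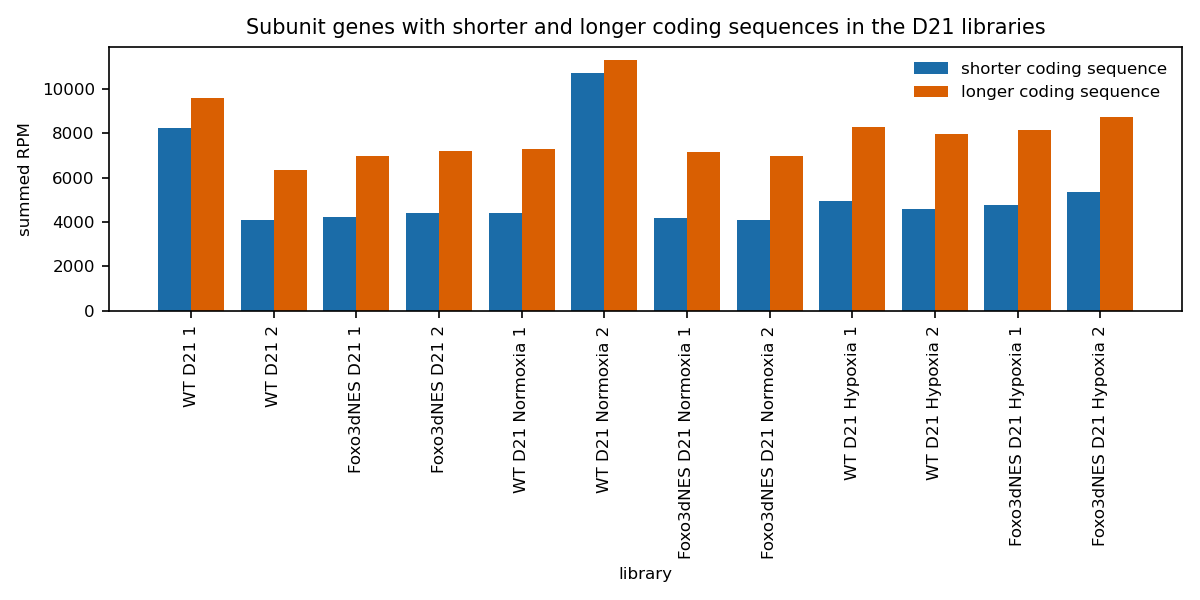
Summed RPM (vertical axis, from 0) of the 42 members with shorter and the 42 with longer coding sequences in each D21 library. Library 2 of WT normoxia and library 1 of WT with no stated oxygen have the tallest bars of both kinds and the highest share in short genes (48.7% and 46.2%).

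In Foxo3dNES oocytes 0 members were higher (0.153% of all genes) or lower (0.869%) in hypoxia by limma, with 4 at an unadjusted p below 0.05; edgeR called 0 and DESeq2 1 higher. The median was 0.29 against 0.07, and fitted on these 4 libraries alone 43 of 81 members were called higher and 0 lower. The share of all genes called in that smaller fit is not given here, so the 43 cannot be read as particular to the members. Cox4i2 had 96.4 and 134 RPM in hypoxia against 60.8 and 49.9 in normoxia, without overlap but short of the threshold (1.03 ± 0.45, limma adjusted p = 0.35). In WT it had 107 and 109 against 49.4 and 115, which overlapped (0.51 ± 0.45).

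Foxo3dNES and WT oocytes differed in 0 members in normoxia (0.00695% of all genes higher, 0% lower), with 12 at an unadjusted p below 0.05 by limma. After adjustment edgeR called 0 and DESeq2 20 lower, with 52 and 65 members at an unadjusted p below 0.05. The members' median of -0.61 became -1.18 without library 1 of WT normoxia, against 0.28 over all genes. Without library 2 it became -0.08, against 0.03. In hypoxia 0 differed (0.00695% higher, 0% lower), with 0 at an unadjusted p below 0.05, 0 by edgeR and 0 by DESeq2, and the members' median was 0.07 against 0.04. With no stated oxygen 0 were called (6.25% higher, 0.605% lower), with 3 at an unadjusted p below 0.05. Both other tools also called 0. The median of -0.28 became -0.74 without library 2 of WT, against 0.30 over all genes, and 0.12 without library 1 of WT, against 0.15. The genotypes' responses to hypoxia differed in 0 members (0% of all genes in both directions). By limma 0 had an unadjusted p below 0.05. After adjustment edgeR and DESeq2 called 0, and DESeq2 had 18 at an unadjusted p below 0.05. The members' median was 1.25 without library 1 of WT normoxia, against -0.25 over all genes, and 0.15 without library 2, against -0.01. A count of 0 does not show equal levels.

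Granulosa markers moved with oxygen. They summed to 37.6 to 57.7 RPM in the 4 hypoxia libraries and to 161 to 359 in the 4 normoxia libraries, and Amhr2 was at 1.60 to 4.14 in hypoxia against 19.9 to 46.8 in normoxia. Cdh5, a defining endothelial marker, went the other way, at 1.33 to 10.0 RPM in hypoxia against 0.251 to 0.417 in normoxia. Pecam1, also a defining endothelial marker, overlapped, at 7.16 to 15.4 RPM in hypoxia and 3.63 to 14.6 in normoxia. The sums of the 7 endothelial markers overlapped as well, at 17.9 to 44.9 and 12.3 to 23.3 RPM. The germ cell and oocyte markers summed to 18603 to 22978 RPM in hypoxia and 26313 to 39018 in normoxia. Their part in the D21 values of the members was not tested.

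The alternative forms of complex IV subunits changed their share of the family in an order of their own. Shares were taken from RPM per kilobase of transcript and are given as mean ± SD over libraries. Cox4i2 made up 0.0956% ± 0.079 of Cox4 transcripts at E14.5, 1.26% at E18.5, 5.74% at P1, 12.1% ± 2.82 at P3 and 10.5% ± 0.218 and 7.00% ± 0.353 in small and large oocytes of P6. In culture it was 0.0472% at D5, 5.56% at D11, 13.5% ± 0.774 at D13 and 5.22% at D20. At D21 the share was 11.4% ± 0.601 in WT normoxia and 12.6% ± 1.76 in Foxo3dNES normoxia, against 19.0% ± 1.19 and 19.2% ± 2.69 in hypoxia. All 4 hypoxia libraries (17.3 to 21.1%) lay above all 4 normoxia libraries (10.9 to 13.9%). The libraries with no stated oxygen had 12.9 and 17.8% in WT and 11.6 and 13.1% in Foxo3dNES. These differences in share were not tested.

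Cox7a1 went the opposite way, from 7.64% ± 0.222 of the Cox7a genes at E14.5 to 0.663% at E18.5, and from 15.2% ± 1.48 at D5 to 4.23% at D11 and 0.268% at D20. Cox7b2 held 12.8% of its pair at E14.5, 33.7% ± 10.4 at E16.5, 9.60% at E18.5 and 0.475% at P3, and Cox8c 18.9% at E14.5, 21.3% at E16.5, 4.53% at P3 and 0.978% in large oocytes of P6. Cox6b2 held 33.2% ± 1.10 of its pair in small and 43.9% ± 0.890 in large oocytes of P6. Among the c ring genes Atp5g1 held 5.47% ± 0.332 in small and 10.6% ± 0.0803 in large oocytes of P4, and 6.01% and 11.1% at P6, with no overlap at either age. In culture its share was 5.68% ± 0.175 at D11 and 10.3% ± 0.577 at D13 and stayed at 10.4% at D20.

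**Figure D5:**
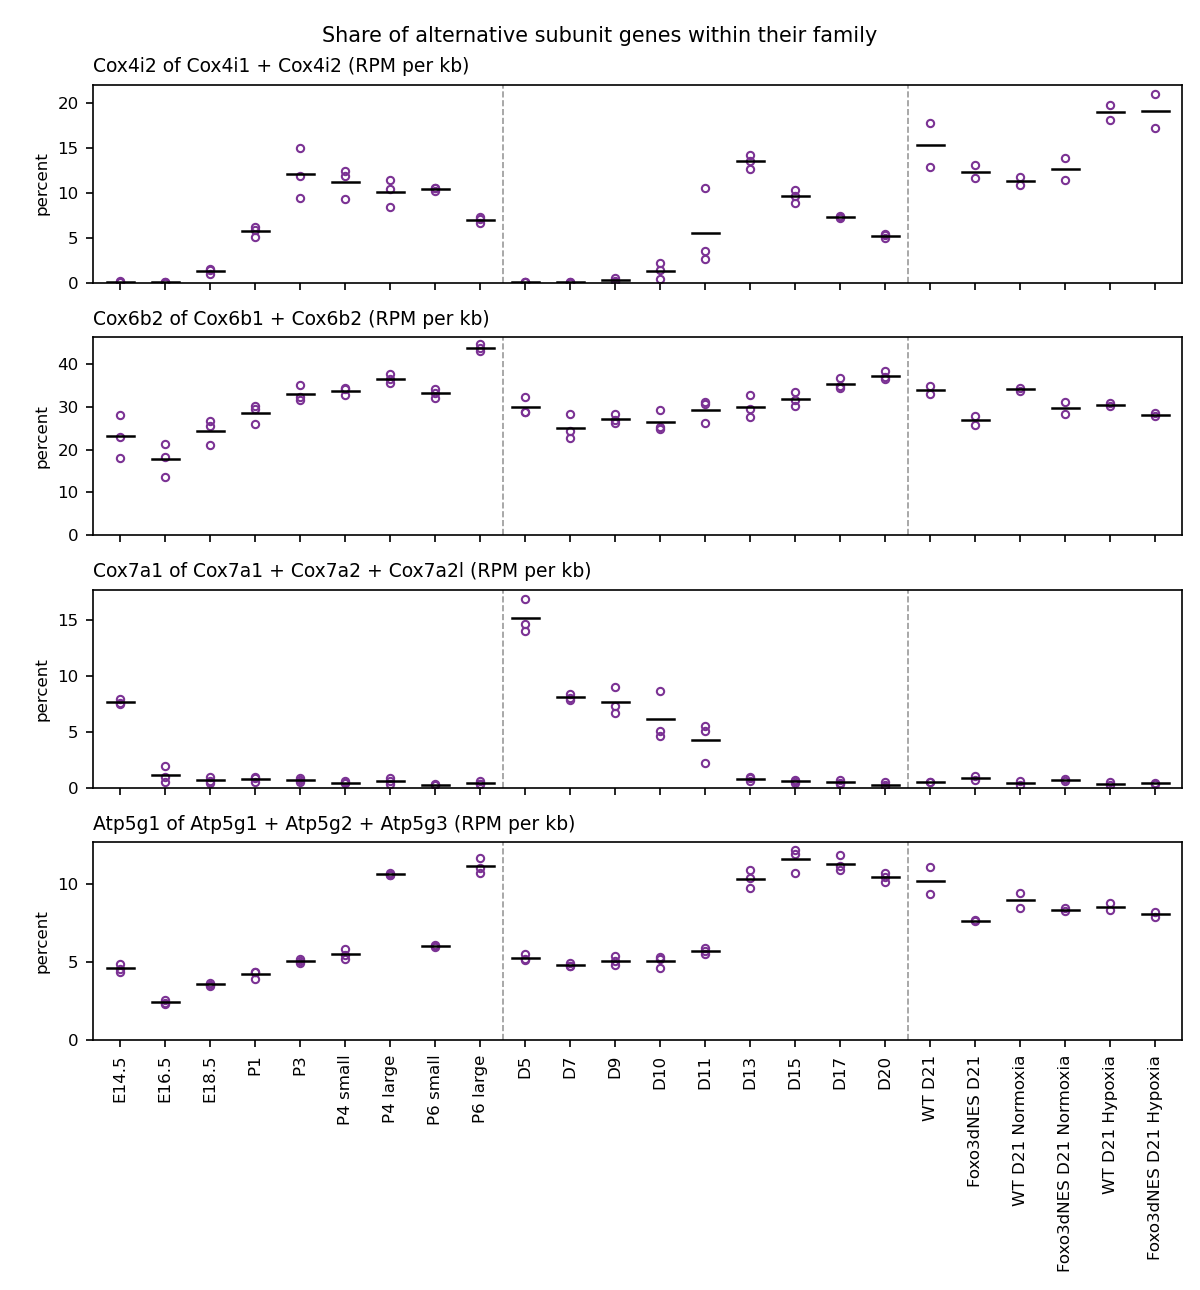
Share (percent of RPM per kb, vertical axes from 0) of Cox4i2, Cox6b2, Cox7a1 and Atp5g1 within their gene families in the 24 groups; circles are libraries and bars are group means. Cox4i2 climbs from 0.0956% at E14.5 to 12.1% at P3 and is highest in D21 hypoxia, and Atp5g1 is higher in large than in small oocytes at both ages.

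Members with and without a promoter motif covered overlapping ranges of response. At P6 the 26 members with a motif had a median small-oocyte difference of 0.90 and the 39 without had 1.03, with ranges from -0.33 to 1.45 and from 0.07 to 1.93. From D11 to D20 the medians were -0.72 and -0.99.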

How the data were processed

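Directional, poly(A)-selected libraries of mouse oocytes were made with 12 cycles of PCR, per the labels' protocols. The authors deposited one table of RPM. The submitters' processing notes name TopHat2, Bowtie2 2.0.13, featureCounts 1.5.1, R 3.4.4 and the build mm10; their roles, the annotation and the strand setting are not given in the sources used here. All deposited RPM values were whole multiples of the value of a read (100% within 0.01 of a read), so reads were recovered for the count tests. Because RPM is a share of the library, a rise of other genes lowers it.

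Differences in log2(RPM + 1) were tested, two-sided, with limma-trend (R 4.3.3 with limma 3.58.1) over genes with a mean of at least 1 RPM in at least 1 group, with Benjamini-Hochberg adjustment over all genes and a threshold of 0.05. Separate fits held the 27 in vivo, the 27 culture course and the 12 D21 libraries (18, 18 and 6 residual degrees of freedom). Members passing the filter numbered 82, 83 and 82 of 84; Cox8b was left out of all. Fold changes on this scale understate those of low genes. The scripts were tested on simulated data. The alternatives were other pseudocounts, no filter, median-of-ratios rescaling, a replicate block, only the groups compared, edgeR 4.0.16, DESeq2 1.42.0 and each library left out; a crossed block was added after seeing the data. From each complex the called member with the largest rise and the largest fall, at 5 RPM or more, is named, and all alternative subunit forms; other names were chosen after their values were seen. A gene that this rule picks is not reported here. The members and lists were chosen with earlier results of these data known. Sequence lengths are from GENCODE vM21 and coding length stands in for protein length. The comparison of replicate pairs found no duplicated library.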

Additional observations from a re-analysis of the deposited data

Results flagged for a closer look

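For 8 members the difference in log2(RPM + 1) between small and large oocytes differed between P4 and P6 by the limma interaction test, with adjusted p-values over all genes from 0.010 to 0.041. In each of the 8 the difference was larger at P6, as it was for 906 of all 15401 genes (5.88%). The number of such members was 2 after median-of-ratios rescaling (488 of all genes), 1 with edgeR, 3 with DESeq2 and 22 when only these groups were fitted. With a library left out it ran from 1 (without library 1 of the large P4 oocytes, 385 of all genes) to 24 (without library 2 of that group, 1341). Ndufs6, an accessory subunit of complex I, had 112 RPM in small and 68.6 in large oocytes at P4, and 114 and 40.9 at P6, so the difference grew by 0.75 ± 0.18 (SE). Atp5d, the delta subunit of the F1 head, had 149 and 88.3 RPM at P4 and 153 and 53.8 at P6 (0.73 ± 0.18). Ndufa5 of complex I had 100.2 and 52.9 RPM, then 116 and 37.9 (0.68 ± 0.17). In all 3 the large oocytes of P6 had the lowest mean of the 4 groups.

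The other 5 changed by less. The change was 0.51 ± 0.15 for Atp5o, 0.50 ± 0.12 for Atp5g3, 0.49 ± 0.13 for Atp5g1, 0.46 ± 0.14 for Ndufs3 and 0.41 ± 0.12 for Ndufs7. Atp5g1 is the member with the closest means of small and large oocytes at P4 among the 8, 136 and 134 RPM, and differed at P6, with 139 and 97.4.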

How the results depend on the processing

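Other pseudocounts changed no direction and no call of a named member, and moved no count by over 1.5 times. Of 420 alternative counts of members called, 329 were within 1.5 times of the reported count and 91 were not. Of 2006 alternative values of named members, 1797 had the same direction and call, 187 lost the call and 22 turned direction. The cause was not tested where none is named.

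With median-of-ratios rescaling, edgeR and DESeq2 in turn, E18.5 against E14.5 had 15, 14 and 14 members higher and 32, 30 and 33 lower; P4 small against large had 29, 39 and 31 higher and 11, 10 and 11 lower; P6 had 45, 51 and 46 higher and 8, 6 and 8 lower; P6 large against P3 had 8, 5 and 7 higher; the interaction of size and age had 2, 1 and 3 higher; and D20 against D11 had 14, 13 and 13 higher and 31, 28 and 29 lower. The lower counts of D11 against D5 were 39 with edgeR and 44 with DESeq2, that of P3 against E18.5 was 14 with edgeR, and P6 small against P3 had 0 lower after rescaling and with edgeR. WT hypoxia had 0 higher after rescaling and with edgeR, and DESeq2 gave it 15 lower. DESeq2 called 2 lower for the interaction of size and age, 1 higher for Foxo3dNES hypoxia and 20 lower for Foxo3dNES against WT in normoxia. The shares of all genes called by edgeR and DESeq2 are not given here.

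Directions that turned were, with rescaling, edgeR and DESeq2 in turn, those of Atp5g1 (-0.10, -0.028, -0.10) and Cox6b2 (-0.16, -0.10, -0.17) at P6 and of Cox6a1 there with rescaling and DESeq2 (-0.029, -0.027); those of Atp5g1 (0.28, 0.20, 0.28) and Sdha (0.28, 0.21, 0.29) for P6 large against P3; and those of Cox7a2l (0.21, 0.26, 0.21) and Sdha (0.25, 0.30, 0.25) for D20 against D11, and there of Cox6a1 with edgeR (0.049) and DESeq2 (0.0084).

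With no filter, P6 had 2 lower and the interaction of size and age 1 lower. Fitted on the groups compared only, E18.5 against E14.5 had 11 lower, P6 2 lower, P6 small against P3 1 higher and 5 lower, the interaction of size and age 22 higher and 1 lower, D11 against D5 1 higher and 2 lower, D20 against D11 1 higher, WT hypoxia 0 higher and 0 lower, and Foxo3dNES hypoxia 43 higher.

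Leaving out a library gave ranges of 19 to 36 higher and 11 to 23 lower for E18.5 against E14.5, 19 to 32 higher for P3 against E18.5, 1 to 2 lower at P6 (2 without library 3 of the small oocytes), 0 to 1 lower for P6 small against P3, 1 to 24 higher for the interaction of size and age, 3 to 16 higher and 12 to 42 lower for D11 against D5, 2 to 5 higher for D20 against D11, 0 to 2 higher and 0 to 49 lower for WT hypoxia, 0 to 65 lower for Foxo3dNES in normoxia, 0 to 3 lower for Foxo3dNES with no stated oxygen and 0 to 34 higher for the genotypes' hypoxia responses. At D21 this leaves a group with a single library, which is assumed to vary like the others.

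Replicate numbers did not pair the in vivo or culture course libraries: in none of their comparisons did all same-numbered pairs deviate together with r over 0.1. For P6 small against P3 r lay between 0.035 and 0.216. At D21 r lay between -0.185 and 0.228, and it was 0.126 for both replicate numbers of Foxo3dNES against WT in normoxia. With 2 libraries in a group both replicate numbers give the same r, so pairing cannot be judged there. A fit with the replicate number as a block took the lower count to 0 for P6 small against P3 and for WT hypoxia, and moved no other count of calls by over 1.5 times; members at an unadjusted p below 0.05 for Foxo3dNES in normoxia went from 12 to 4. A crossed pairing of the D21 hypoxia and normoxia libraries, chosen after seeing the data, called 1 higher and 0 lower in WT and 0 and 0 in Foxo3dNES. Depth limits the groups in which a member lies near 1 RPM or below, and the D21 libraries of 4.84 to 8.72 M reads.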
